A study of Homo sapiens with 16 samples.

Results

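The 9 genes described here encode secreted regulators of bone morphogenetic protein (BMP) signalling and its immediate transcriptional targets: the ligands BMP2 and BMP4, the antagonists GREM1, CHRDL1, NOG and FST, and the inhibitor-of-differentiation genes ID1, ID2 and ID3. They were chosen by symbol, and all 9 were found among the 40663 gene symbols of the table and had counts in every library. Bulk RNA sequencing was done on 16 cultures of Ccd18-Co, a single line of human colon fibroblasts, split into 4 groups of 4. Cells of 3 groups had been stimulated with a mix of TNF, OSM and IL-17A, each at 10 ng/ml, and IL-1B at 0.1 ng/ml, in 3 pulses of 72 h with 96 h of recovery after each. A week of rest followed, and the cells were then kept for 5 days in the carrier DMSO diluted 1:5000 (here called vehicle), in belinostat, a histone deacetylase inhibitor, at 250 nM, or in GSK-J4, an inhibitor of the histone H3 lysine 27 demethylases, at 10 µM. The remaining group, here called unstimulated, received no cytokines and had DMSO by its sample titles, where its column names say none. Doses here are those of the sample labels, and the paper reports a different belinostat dose for its assays. Extracts were made 2 weeks after compound removal, so every value describes that time and not the acute response. No earlier time was sampled in these 16 cultures, so persistence and later change cannot be told apart. Nothing in the labels says that the 4 cultures of a group were separate experiments, and p-values then measure only the spread between these cultures.

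BMP2 and BMP4 bind type I and type II serine/threonine kinase receptors, which phosphorylate SMAD1, SMAD5 and SMAD9. These enter the nucleus with SMAD4 and switch on direct targets, of which ID1, ID2 and ID3 are the classical read-outs. Gremlin (GREM1), noggin (NOG) and chordin-like 1 (CHRDL1) hold BMP ligands away from their receptors, and follistatin (FST) does so mainly for activins. In the intestine, stromal cells near the crypt base are known to secrete such antagonists, which keep BMP signalling low around the stem cells, while ligands are made by stromal cells nearer the lumen.

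The libraries held 14.4 to 19.5 M estimated counts. Belinostat replicate 17 stood apart: on the first principal component of the deviations from group means, which held 33.1% of that variance, it lay at 15.33, the farthest of the 16 libraries from its group, followed by unstimulated replicate 1 at 10.67. Values without it are given beside the results under belinostat. All 9 fibroblast markers on a fixed list (among them COL1A1, DCN and PDGFRA) averaged at least 10 CPM (counts scaled to the library total) in every group, while epithelial markers summed to at most 1.08 CPM and endothelial markers to at most 2.41 CPM. Of 5 leukocyte markers, PTPRC, CD3E and MS4A1 were at or near 0, and CD68 and CD14 carried the summed 14.8 to 41.6 CPM. Of 5 smooth muscle markers DES was at or near 0. The summed level of the list was 568 to 789 CPM in unstimulated cells, 616 to 692 in vehicle, 368 to 583 under belinostat and 893 to 958 under GSK-J4. It was thus lowest in the group with the highest ID1, ID2 and ID3 levels and highest in the group with the lowest, and its part in any result was not tested. In bulk RNA, fewer cells that express a gene and less RNA per cell cannot be told apart.

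The 250 bases before the RefSeq start of each ID gene are shown because these genes moved together (values below). They were read from RefSeq sequence of GRCh38.p14, which held such windows for 7 of the 9 genes. Positions are chr20:31605039-31605288 on the plus strand for ID1, chr2:8681806-8682055 on the plus strand for ID2 and chr1:23559502-23559751 on the minus strand for ID3. Capitals mark GTCT or its reverse complement AGAC, the core letters of SMAD-binding elements.
ID1: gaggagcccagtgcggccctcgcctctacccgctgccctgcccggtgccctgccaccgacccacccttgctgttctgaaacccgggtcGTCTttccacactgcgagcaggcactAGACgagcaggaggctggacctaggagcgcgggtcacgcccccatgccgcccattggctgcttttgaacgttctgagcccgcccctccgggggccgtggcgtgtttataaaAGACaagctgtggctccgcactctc
ID2: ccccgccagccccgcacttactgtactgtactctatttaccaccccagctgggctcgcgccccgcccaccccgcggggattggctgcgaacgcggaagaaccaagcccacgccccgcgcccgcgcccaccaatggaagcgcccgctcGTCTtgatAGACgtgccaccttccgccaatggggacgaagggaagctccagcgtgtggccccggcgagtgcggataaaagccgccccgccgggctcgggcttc
ID3: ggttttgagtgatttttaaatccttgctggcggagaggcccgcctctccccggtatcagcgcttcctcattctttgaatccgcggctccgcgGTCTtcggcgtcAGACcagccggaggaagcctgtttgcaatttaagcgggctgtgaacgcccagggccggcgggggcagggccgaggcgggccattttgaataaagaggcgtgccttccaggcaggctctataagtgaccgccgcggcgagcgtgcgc

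Each window was rich in G and C, at 66.0% for ID1, 69.2% for ID2 and 62.0% for ID3 against a median of 58.0% over 35116 windows of the same length. CpG dinucleotides numbered 19, 29 and 24, against a median of 11. GTCT on either strand occurred 3 times in the ID1 window and 2 times each in those of ID2 and ID3, and 77.5% of all windows held it at least once. GGCGCC, a palindromic GC-rich letter string related to BMP-responsive SMAD sites, was in none of the ID windows and in 16.4% of all. CCAAT on either strand occurred 1 time for ID1, 3 times for ID2 and 0 times for ID3 (32% of all windows), and TATAAA on the gene's strand occurred once, in the ID1 window (6.8% of all). Such matches describe letters and not bound sites. Of the 2 windows of GREM1, the upstream one held GTCT 3 times and GGCGCC 2 times, and the other held GTCT 1 time and GGCGCC 0 times. The single window of CHRDL1 held neither, and that of FST held GTCT 3 times and GGCGCC 0 times. The windows of BMP4, in order of position, held GTCT 2, 0 and 2 times and GGCGCC 0, 0 and 1 times.

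Per kilobase of transcript, BMP4 had the highest level of the 9 genes in every group and ID3 the next. In unstimulated cells BMP4 stood at 2127 ± 283 normalized counts per kb (SD, n = 4, as for all levels here) and ID3 at 1001 ± 92.1. ID2 at 358 ± 32.1 and BMP2 at 337 ± 21.6 followed and did not differ beyond their spread. Next came ID1 at 198 ± 34.3, then CHRDL1 at 123 ± 31.9 and GREM1 at 96.0 ± 34.9, which lay within each other's spread, FST at 73.7 ± 6.57 and NOG, the lowest, at 47.4 ± 6.95. The place of GREM1 depends on the transcript length used, 14.57 kb, where those of the other genes ran from 0.95 to 3.86 kb. Under belinostat NOG came 6th, at 104 ± 33.4, and its neighbours below it, GREM1 at 81.6 ± 56.9, CHRDL1 at 72.0 ± 36.8 and FST at 68.6 ± 11, did not differ from it beyond the spread. BMP4 at 1530 ± 418 and ID3 at 1401 ± 84.0 also lay within each other's spread under belinostat. The remaining values are normalized counts per gene, which are counts divided by the library's size factor and are not comparable between genes.

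**Figure D1:**
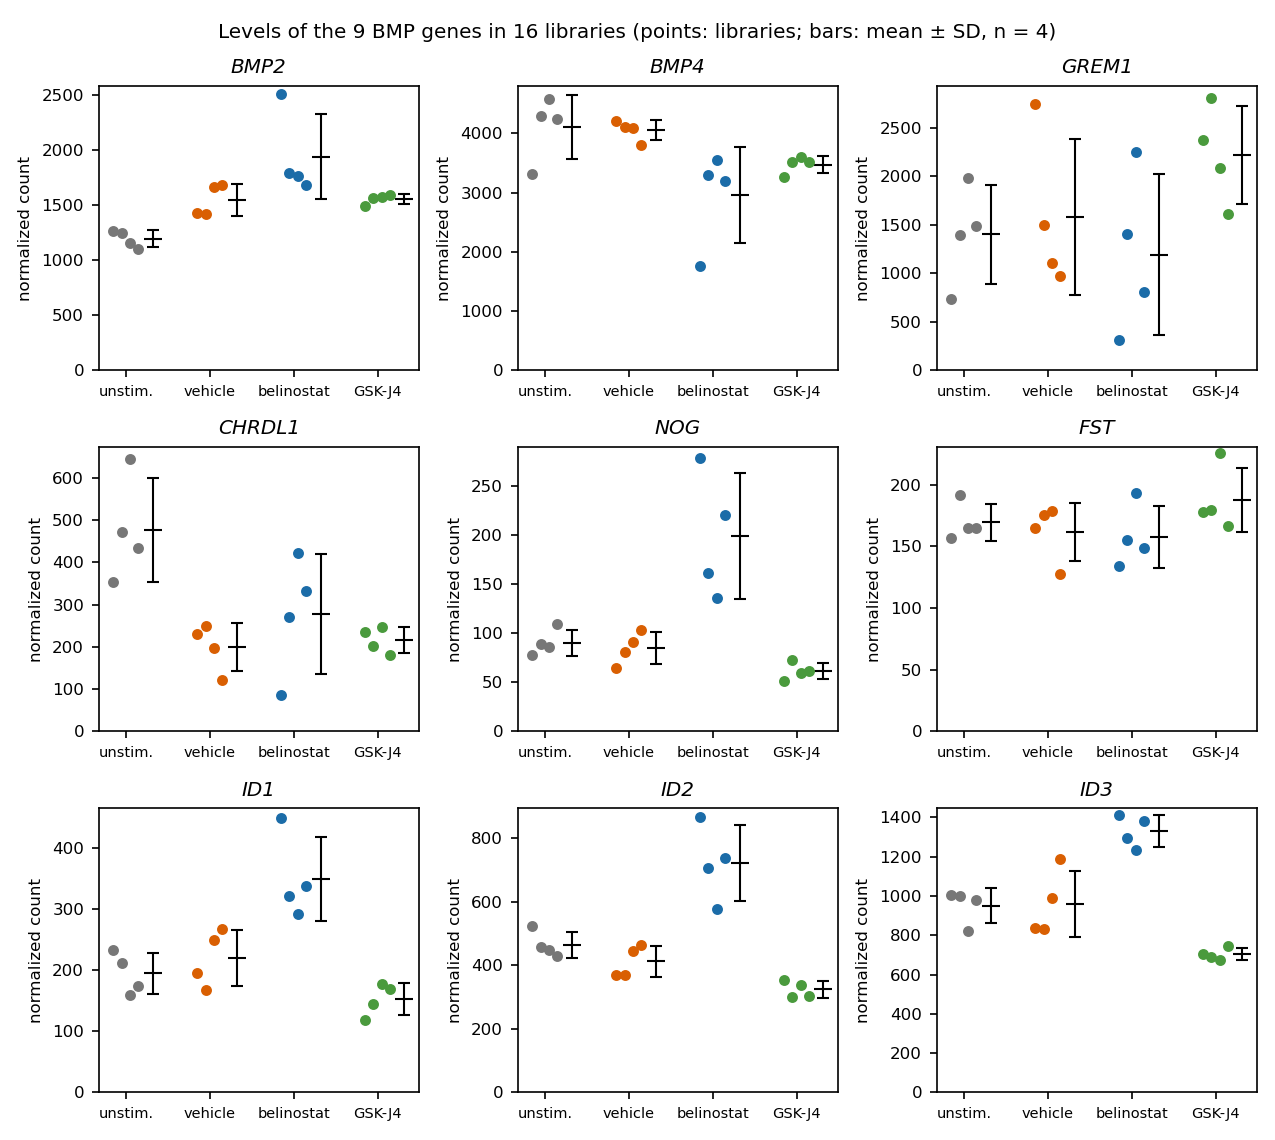
Normalized counts (vertical axes, from 0) of each of the 9 genes in the 4 groups (horizontal axes), with 1 point per library and bars for mean ± SD (n = 4). NOG, ID1, ID2 and ID3 were highest in the belinostat libraries, with no overlap with any other group, while GREM1 libraries spread from 316 to 2243 within the belinostat group alone. The share of all genes that separate in this way was not measured.

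Cells that had received the cytokine pulses were compared with cells that had not, as vehicle against unstimulated. Of the 9 genes, DESeq2 called 1 higher (BMP2) and 0 lower in vehicle at a Benjamini-Hochberg adjusted p under 0.05 (edgeR called 0), where 1.1% of the 16240 genes tested were called higher and 0.634% lower. At an unadjusted p under 0.05, BMP2 was higher and CHRDL1 lower by either tool. The median log2 fold change of the 9 genes was -0.02, beside -0.01 over all genes tested.

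BMP2 stood at 1268, 1247, 1159 and 1104 normalized counts in unstimulated replicates 1 to 4 and at 1433, 1419, 1662 and 1683 in vehicle replicates 13 to 16. Every vehicle library lay above every unstimulated one. The log2 fold change was 0.38 (SE 0.11, DESeq2 adjusted p 0.0311). The call was lost under edgeR (0.37, adjusted p 0.106) or when 1 of 5 libraries was left out, namely unstimulated 2 (0.40), 3 (0.36) or 4 (0.34), or vehicle 15 (0.34) or 16 (0.33).

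CHRDL1 had the largest fitted difference of the 9 genes in this comparison. Its levels were 352.2, 472.5, 644.5 and 433.5 in unstimulated replicates 1 to 4 and 229.4, 250.1, 196.5 and 121.7 in vehicle replicates 13 to 16. The groups did not overlap, but the log2 fold change of -1.25 (SE 0.38, 95% interval -2.0 to -0.51) missed the threshold (DESeq2 adjusted p 0.0525). It passed when genes with few counts were removed first (adjusted p 0.0475), with total library size as the scaling (0.0498), without unstimulated replicate 1 (0.0485), and in a DESeq2 fit of those 8 libraries alone (1.52e-06). The main fit takes a single spread per gene from all groups. The SD of CHRDL1 was 25.9% of its mean in unstimulated cells, 28.2% in vehicle, 14.1% under GSK-J4 and 51% under belinostat. The part of the belinostat spread in the missed threshold was not tested.

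The other ligand and the ID genes gave small fitted differences between vehicle and unstimulated cells, none of them called. The 95% interval of the log2 fold change ran from -0.31 to 0.28 for BMP4, from -0.18 to 0.53 for ID1, from -0.41 to 0.06 for ID2 and from -0.19 to 0.22 for ID3. That of GREM1, from -0.83 to 1.17, was the widest of the 9.

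The contrast of belinostat with vehicle compares cells with and without earlier deacetylase inhibition, all of which had seen the cytokines. DESeq2 called 5 of the 9 genes higher (NOG, ID1, ID2, ID3 and BMP2) and 1 lower (BMP4), where 3.12% of 14209 genes were called higher and 3.13% lower. The median log2 fold change of the 9 was 0.47, beside 0.00 over all genes tested. The 3 ID genes and NOG kept their calls under every alternative fit and without any single library.

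ID1, an HLH protein without a DNA-binding region that sequesters E proteins, stood at 195.1, 167.7, 249.6 and 266.5 in vehicle replicates 13 to 16 and at 448.7, 321.1, 291.3 and 337.4 in belinostat replicates 17 to 20. The lowest belinostat library lay above the highest vehicle library. The log2 fold change was 0.67 (SE 0.18, DESeq2 adjusted p 0.00441), and 0.53 without belinostat replicate 17 (adjusted p 0.0326).

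ID2, of the same family, stood at 370.3, 369.9, 445.2 and 464.7 in vehicle and at 866.9, 707, 577.2 and 738.2 under belinostat, again without overlap. Its log2 fold change of 0.81 (adjusted p 1.67e-09 in DESeq2, SE 0.12) became 0.71 without belinostat replicate 17. ID3, the most abundant of the family per kb, stood at 834.7, 833.6, 987.4 and 1188 in vehicle and at 1411, 1296, 1236 and 1381 under belinostat. The groups were separate, with vehicle replicate 16 close to the lowest belinostat library. The log2 fold change of ID3 was 0.47 (adjusted p 0.00022 in DESeq2, SE 0.10), and 0.44 without belinostat replicate 17.

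NOG had the largest rise of the 9 genes. It stood at 64.72, 81.45, 91.28 and 103.3 normalized counts in vehicle and at 278.8, 161.2, 135.9 and 221.2 under belinostat. All 4 belinostat libraries lay above all vehicle libraries. The log2 fold change was 1.23 (SE 0.21, DESeq2 adjusted p 1.12e-06), a 2.34-fold difference in level, and 1.02 without belinostat replicate 17. NOG also had the lowest counts of the 9 genes in vehicle, where counting error weighs most.

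The ligands went in opposite directions, and both calls depended on single libraries. BMP2 stood at 2512, 1796, 1764 and 1681 under belinostat, where replicate 20 lay below vehicle replicate 16. Its log2 fold change of 0.32 (adjusted p 0.0395 in DESeq2, SE 0.11) was 0.17 without belinostat replicate 17 and no longer called (adjusted p 0.122). The BMP2 call was also lost without vehicle replicate 13 (0.29) or 14 (0.28), under edgeR (adjusted p 0.0736), with TMM scaling (0.0514) and with only the 8 libraries compared (0.14).

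BMP4 stood at 4202, 4108, 4096 and 3811 in vehicle and at 1766, 3297, 3557 and 3200 under belinostat. The groups did not overlap, and replicate 17 was by far the lowest. The log2 fold change of -0.46 (adjusted p 0.0399 in DESeq2, SE 0.15) was -0.27 without belinostat replicate 17 and then still called (adjusted p 0.019). It was not called under edgeR (adjusted p 0.104), with only the 8 libraries compared (0.3), or without vehicle replicate 13 (-0.44), 14 (-0.45), 15 (-0.45) or 16 (-0.49) or belinostat replicate 20 (-0.50).

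Among the other antagonists under belinostat, CHRDL1 stood at 86.88, 271.1, 422.9 and 331.2. Replicate 17 was below every vehicle library and the other 3 above them. The log2 fold change of 0.48 (95% interval -0.27 to 1.22) was not called, but was 0.78 and called without replicate 17 (DESeq2 adjusted p 0.00932).

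GREM1 stood at 2738, 1499, 1108 and 970.9 in vehicle and at 316, 1399, 2243 and 803.6 under belinostat, a 7.1-fold range within the belinostat group. No direction could be read from a log2 fold change of -0.41 with a 95% interval of -1.41 to 0.59, or -0.09 without belinostat replicate 17. In the annotation of GENCODE release 44, GREM1 shares 158 exonic bases with GREM1-AS1 on the opposite strand, and the library kit is not stated to mark strand. FST stood at 164.7, 175.4, 178.8 and 127.2 in vehicle and at 133.7, 155.1, 193.1 and 148.5 under belinostat, with a log2 fold change of -0.04 (interval -0.32 to 0.25), or 0.04 without replicate 17.

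GSK-J4 was set against the same 4 vehicle libraries, so the results for both compounds share their controls and are given side by side. DESeq2 called 0 of the 9 genes higher and 1 lower (ID3), where 1.1% of 13197 genes were called higher and 0.818% lower. At an unadjusted p under 0.05 the numbers were 0 higher and 4 lower (NOG, ID1, ID2 and ID3), both in DESeq2 and in edgeR. The median log2 fold change was -0.22, beside 0.00 over all genes tested.

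ID3 stood at 704.8, 689.1, 674.6 and 746.3 in GSK-J4 replicates 21 to 24, below every vehicle library. Its log2 fold change was -0.45 (SE 0.10, DESeq2 adjusted p 0.0024), and the call was kept in all alternatives. ID2 at 353.9, 301, 337.3 and 305 also lay wholly below vehicle, with a log2 fold change of -0.35 (95% interval -0.59 to -0.11, DESeq2 adjusted p 0.136), and was called only when those 8 libraries were fitted alone (adjusted p 0.0305).

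ID1 stood at 119, 145.4, 177.8 and 168.8 under GSK-J4 and overlapped vehicle, with a log2 fold change of -0.53 (95% interval -0.88 to -0.17, DESeq2 adjusted p 0.127). NOG at 51.87, 72.7, 59.94 and 61.84 likewise overlapped vehicle, with -0.47 (95% interval -0.91 to -0.02, DESeq2 adjusted p 0.447). None of the alternatives called either gene.

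For the ligands, BMP2 stood at 1496, 1567, 1574 and 1593 under GSK-J4, inside the range of vehicle, and the interval of its log2 fold change was -0.20 to 0.22. BMP4 at 3265, 3516, 3597 and 3514 lay below every vehicle library. Its log2 fold change was -0.22 (DESeq2 adjusted p 0.697), and it was called only when those 8 libraries were fitted alone (adjusted p 0.000216). The main fit takes a single spread per gene from all groups. The SD of BMP4 was 4.15% of its mean under GSK-J4, 4.17% in vehicle, 13.3% in unstimulated cells and 27.3% under belinostat. The part of the belinostat spread in the missing call was not tested. GREM1 at 2373, 2803, 2080 and 1610 overlapped vehicle, with an interval of -0.51 to 1.49. CHRDL1 at 234.9, 201.7, 246.9 and 180.3 and FST at 178, 179.2, 225.5 and 166.7 also overlapped vehicle, and neither was called.

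**Figure D2:**
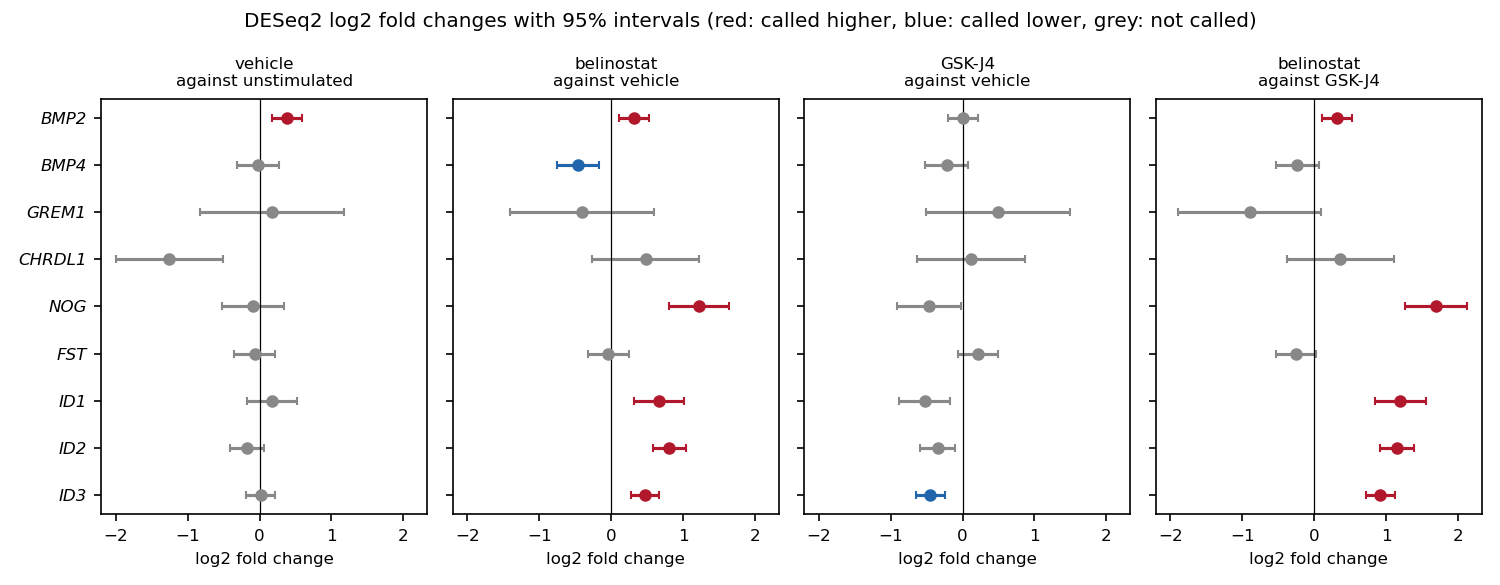
DESeq2 log2 fold change (horizontal axis) with its 95% interval for the 9 genes (vertical axis) in 4 comparisons, with calls higher in red, calls lower in blue and no call in grey. The ID genes and NOG lay to the right under belinostat and to the left under GSK-J4 (where ID3 alone was called), and the intervals of GREM1 and CHRDL1 were the widest.

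The direct test of belinostat against GSK-J4 does not use the vehicle libraries to set its fold changes. The compounds were given at different doses, each at 1 dose, so the comparison is of these 2 treatments as given. DESeq2 called 5 of the 9 genes higher under belinostat and 0 lower (also 0 lower at an unadjusted p under 0.05, by DESeq2 and by edgeR), where 6.18% of 14717 genes were called higher and 6.01% lower. For NOG the log2 fold change was 1.70 (SE 0.22, DESeq2 adjusted p 1.6e-12). That of ID1 was 1.20 (SE 0.18, adjusted p 2.28e-09 in DESeq2), that of ID2 1.16 (SE 0.12, adjusted p 1.83e-19 in DESeq2) and that of ID3 0.92 (SE 0.10, adjusted p 1.12e-16 in DESeq2). Every belinostat library lay above every GSK-J4 library for each of these 4, and their calls were kept in every alternative. The share of all genes whose libraries separated in this way was not measured. Without belinostat replicate 17 the lowest of these 4 log2 fold changes was 0.89, for ID3.

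BMP2 was higher under belinostat than under GSK-J4 by 0.32 in log2 units (SE 0.11; adjusted p 0.0287 in DESeq2). The value was 0.17 and no longer called without belinostat replicate 17 (DESeq2 adjusted p 0.101), and the call also needed each of GSK-J4 replicates 21 (0.30 without it), 22 (0.32), 23 (0.32) and 24 (0.33); it was absent too with only the 8 libraries compared (0.32). GREM1 was at -0.90 (95% interval -1.90 to 0.10) and not called, though it was called without belinostat replicate 19 (-1.40, DESeq2 adjusted p 0.041). CHRDL1, at 0.36, was called only without belinostat replicate 17 (0.66, adjusted p 0.0255 in DESeq2).

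Against unstimulated cells, DESeq2 called 5 of the 9 genes higher and 1 lower in the belinostat group, where 5.51% of 14209 genes were called higher and 4.77% lower. The log2 fold changes of those called were 1.1 for NOG, 0.85 for ID1, 0.64 for ID2, 0.49 for ID3, 0.70 for BMP2 and -0.47 for BMP4. Without belinostat replicate 17 the values were 0.93 for NOG, 0.70 for ID1, 0.54 for ID2, 0.46 for ID3 and 0.55 for BMP2, all still called. The BMP4 call was lost without unstimulated replicate 2 (-0.45), 3 (-0.42) or 4 (-0.46), under edgeR and with only the groups compared, and without belinostat replicate 17 the value was -0.29. The call of BMP2 under belinostat against unstimulated cells was kept in every alternative. BMP2 was also called higher in vehicle than in unstimulated cells and higher under belinostat than in vehicle. Both of those calls were lost under edgeR and without some single libraries (0.17 for belinostat against vehicle without replicate 17).

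The GSK-J4 group had 1 of the 9 genes called higher (BMP2) and 3 lower (CHRDL1, ID2 and ID3) against unstimulated cells, where 3.18% of 16747 genes were called higher and 2.37% lower by DESeq2. BMP2 was at 0.38, ID2 at -0.52, ID3 at -0.43 and CHRDL1 at -1.1 on the log2 scale. The CHRDL1 call (DESeq2 adjusted p 0.0482) was lost on leaving out 1 of 7 libraries, namely unstimulated replicate 2 (-1.1), 3 (-0.96) or 4 (-1.18) or GSK-J4 replicate 21 (-1.18), 22 (-1.11), 23 (-1.21) or 24 (-1.06). The BMP2 call was lost without unstimulated replicate 4 (0.35), which left 2 of the 4 calls. Unstimulated cells differed from both compound groups in cytokines as well as compound, so these contrasts do not separate cytokines from compound.

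A list of 50 further genes of the pathway was read in the same fits. Between vehicle and unstimulated cells, 1 of its 42 tested genes was called higher in vehicle by DESeq2 and 2 were called lower. Over all 16240 genes tested, 1.1% were called higher and 0.634% lower. The 3 calls on the list became 5 without unstimulated replicate 1 and 1 without vehicle replicate 15. The ligand GDF6 fell by 0.35 in log2 units (SE 0.06; adjusted p 6.04e-06 in DESeq2), from 631.2 ± 26.2 to 496.3 ± 22.1 normalized counts (SD, n = 4). SMAD6, an inhibitory SMAD that BMP signalling induces, fell by 0.33, and TCF12, an E protein that ID proteins bind, rose by 0.17. SMAD6 lost its call under edgeR (-0.33), with total library size (-0.32) and on leaving out unstimulated 2 (-0.35), 3 (-0.31) or 4 (-0.28), or vehicle 13 (-0.30), 15 (-0.33) or 16 (-0.30). TCF12 lost it under edgeR (0.16) and without vehicle replicate 15 (0.14).

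Under belinostat against vehicle, 6 of 39 tested pathway genes were called higher and 4 lower, with a list median of 0.00. Over all 14209 genes tested, 3.12% were called higher and 3.13% lower. Without belinostat replicate 17 the numbers on the list were 11 higher and 4 lower. Of 7 tested targets beside ID1, ID2 and ID3, SMAD7 and ATOH8 rose and 0 fell, by DESeq2 and by edgeR (at an unadjusted p under 0.05, 4 higher and 1 lower by either). The target MSX2 was at -0.535 and not called (DESeq2 adjusted p 0.161). SMAD7, an inhibitory SMAD, went from 734.5 ± 36.1 to 924 ± 128 normalized counts, or 0.33 in log2 units (SE 0.09; adjusted p 0.00952 in DESeq2), and lost its call without vehicle replicate 13 (0.30) but not without belinostat replicate 17 (0.24). ATOH8, a bHLH factor, went from 769.5 ± 49.9 to 984.5 ± 46.3, or 0.36 in log2 units (SE 0.06; adjusted p 7.4e-07 in DESeq2), and the same 0.36 without belinostat replicate 17.

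Members upstream of the targets went both ways under belinostat. The type II receptor BMPR2 rose by 0.33 and the co-receptor endoglin (ENG) fell by 0.52 on the log2 scale. Among the signal-carrying SMADs, SMAD9 rose by 0.33 and SMAD1 fell by 0.50, and SMAD4 and SMAD5 were not called. Among the antagonists or modulators, CRIM1 (0.27) rose, and CHRD (-0.53) and BMPER (-0.66) fell. Without belinostat replicate 17 all 7 of these were still called, at 0.34 for BMPR2, -0.41 for ENG, 0.27 for SMAD9, -0.39 for SMAD1, 0.33 for CRIM1, -0.43 for CHRD and -0.57 for BMPER. Of the 8 tested ligands 0 were called by DESeq2 or by edgeR (at an unadjusted p under 0.05, 1 higher and 1 lower by either).

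Under GSK-J4 against vehicle, 0 of 38 tested pathway genes were called higher and 4 lower, with a list median of -0.08. Over all 13197 genes tested, 1.1% were called higher and 0.818% lower. At an unadjusted p under 0.05, 3 genes of the list were higher by DESeq2 and 2 by edgeR, and 8 lower by either. The 4 calls became 2 without vehicle replicate 15 or 16 or without GSK-J4 replicate 21, 22 or 24. The ligand GDF7 fell by 0.73 (SE 0.14, DESeq2 adjusted p 4.89e-05), from 589.1 ± 50.8 to 355.5 ± 36 normalized counts (SD, n = 4), and the E protein TCF4 fell by 0.29. The same 2 targets that rose under belinostat were lower here, SMAD7 by -0.32 and ATOH8 by -0.22 on the log2 scale. Both of these calls were lost under edgeR (adjusted p 0.12 and 0.0808). SMAD7 lost its call without any 1 vehicle library (-0.35 to -0.29) or without GSK-J4 replicate 21 (-0.32), 22 (-0.27) or 24 (-0.30), and ATOH8 without vehicle replicate 15 (-0.19) or 16 (-0.19) or any 1 GSK-J4 library (-0.23 to -0.19).

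**Figure D3:**
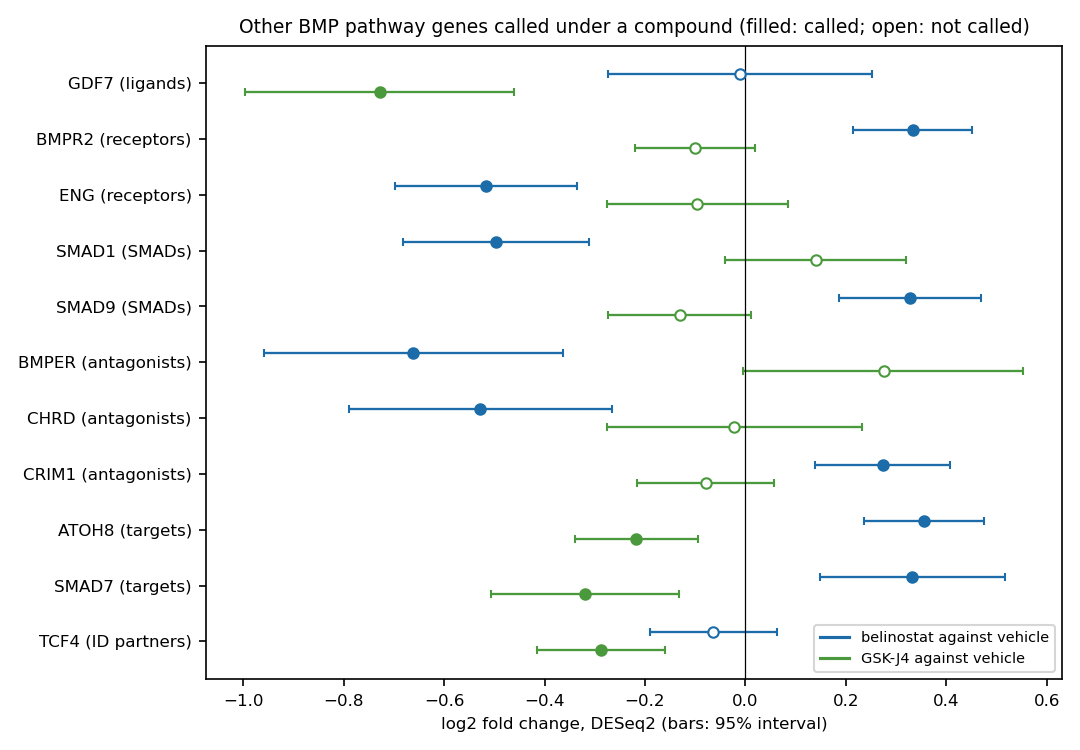
DESeq2 log2 fold changes with 95% intervals (horizontal axis) of 11 other pathway genes (vertical axis, with their role) called under either compound against vehicle, with filled points for calls and open points for no call. ATOH8 and SMAD7 lay to the right of 0 under belinostat and to the left under GSK-J4, while the receptors, SMADs and antagonists called under belinostat lay on both sides.

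Set directly against each other, belinostat and GSK-J4 differed in 18 of 40 tested pathway genes, 13 higher and 5 lower under belinostat. Over all 14717 genes tested, 6.18% were called higher and 6.01% lower. The numbers on the list were 8 higher and 5 lower without belinostat replicate 18, and 15 higher and 5 lower without replicate 17. Of the 8 targets tested, 4 were higher under belinostat and 0 lower (1 lower at an unadjusted p under 0.05). The calls of ATOH8 (0.57, SE 0.06, DESeq2 adjusted p 1.11e-17) and SMAD7 (0.65, SE 0.10, DESeq2 adjusted p 4.9e-10) were kept in every alternative. SMAD6 (0.35) lost its call without belinostat replicate 20 (0.28), and ID4 (0.56) lost it without belinostat replicate 18, 19 or 20 or GSK-J4 replicate 21, 22 or 23 (0.49 to 0.58) and with only the groups compared (0.56). BMPER was lower under belinostat (-0.94), as was SMAD1 (-0.64), and BMPR2 (0.43), SMAD9 (0.46) and GDF7 (0.72) were higher.

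Against unstimulated cells, 8 of 39 tested pathway genes were called higher and 5 lower under belinostat, and 4 of 44 higher and 10 lower under GSK-J4. Over all 14209 genes tested under belinostat, 5.51% were called higher and 4.77% lower. Over all 16747 tested under GSK-J4, 3.18% were called higher and 2.37% lower. The 8 called higher under belinostat were 4 with only the groups compared, 4 without belinostat replicate 20, and 5 without unstimulated replicate 1, 2 or 4 or belinostat replicate 18. The calls under GSK-J4 were 3 higher and 6 lower without unstimulated replicate 3 or GSK-J4 replicate 23, and 2 higher and 9 lower without GSK-J4 replicate 22. GDF6 was lower in all 3 cytokine-pulsed groups than in unstimulated cells, by -0.35 in vehicle, -0.35 under belinostat and -0.41 under GSK-J4. These 3 contrasts share the unstimulated libraries. GDF7 was at -1.02 and ATOH8 at -0.39 under GSK-J4, and CHRD was at -0.78 under belinostat. Of 8 targets tested under GSK-J4, 1 was called higher and 4 lower. The target called higher was MSX2, at 0.78 (DESeq2 adjusted p 0.0137). Its call was lost with only the groups compared (0.78) and without unstimulated replicate 3 (0.60) or GSK-J4 replicate 22 (0.73) or 24 (0.68).

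Many pairs of the 9 genes also varied together among cultures of the same group. For each library the deviation from its own group's mean was taken on a variance-stabilised log2-like scale, and all 36 pairs of genes were correlated over the 16 libraries, with p from 100000 permutations within groups, two-sided and adjusted over the 36. In 21 pairs Pearson's r had an adjusted p under 0.05, and in 19 of them Spearman's rho did too. By Pearson's r, NOG met that threshold only with GREM1 and ID3, and FST only with CHRDL1. The share of all gene pairs that varied together in this way was not measured, so these counts have no background.

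In cultures where GREM1 was high, CHRDL1 and BMP4 were high and the ID genes low. For GREM1 and ID1 Pearson's r was -0.80 and Spearman's rho -0.79 (permutation adjusted p 0.00846 and 0.0112), with r -0.70 after the 2 libraries farthest in GREM1 were left out and -0.73 without belinostat replicate 17. GREM1 and BMP4 gave r 0.82 and rho 0.77 (permutation adjusted p 0.00846 and 0.0112), and r 0.61 without the 2 farthest libraries.

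CHRDL1 and BMP4 gave r 0.90 and rho 0.75 (permutation adjusted p 0.00846 and 0.0112), and r 0.70 without the 2 farthest. CHRDL1 and ID3 gave r -0.67 and rho -0.81 (permutation adjusted p 0.00846 and 0.0112), and r -0.80 without the 2 farthest. BMP2 and ID1 gave r 0.82 and rho 0.81 (permutation adjusted p 0.00846 and 0.0112), and r 0.90 without the 2 farthest libraries. BMP4 and ID1, a ligand and a target, were at r -0.65 and rho -0.56 (permutation adjusted p 0.0372 and 0.0368). For this pair r was -0.37 without the 2 farthest libraries and -0.50 without belinostat replicate 17. In each of these pairs the 2 farthest libraries are those farthest in the gene named first.

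Belinostat replicate 17 was the extreme of this pattern, with the lowest GREM1, CHRDL1, BMP4 and FST and the highest BMP2, NOG, ID1, ID2 and ID3 of its group. Unstimulated replicate 1 had the lowest GREM1, CHRDL1, BMP4, FST and NOG and the highest BMP2, ID1, ID2 and ID3 of its own. Both libraries also lay farthest out on the first component over all genes. Over the 16 libraries, Pearson's r of a gene's deviation with that component was -0.92 for BMP4, -0.87 for CHRDL1, -0.82 for GREM1 and -0.42 for FST, and 0.84 for BMP2, 0.79 for ID2, 0.78 for ID1, 0.56 for ID3 and 0.51 for NOG. These r are a description with no test, over the same libraries as the pairs above and a component computed over 11741 genes. Among the r of all those genes, FST was at percentile 24.4, NOG at 78.2 and ID3 at 81.3. BMP4 was at 0.494, CHRDL1 at 1.84, GREM1 at 3.74, ID1 at 93.1, ID2 at 93.8 and BMP2 at 95.9.

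**Figure D4:**
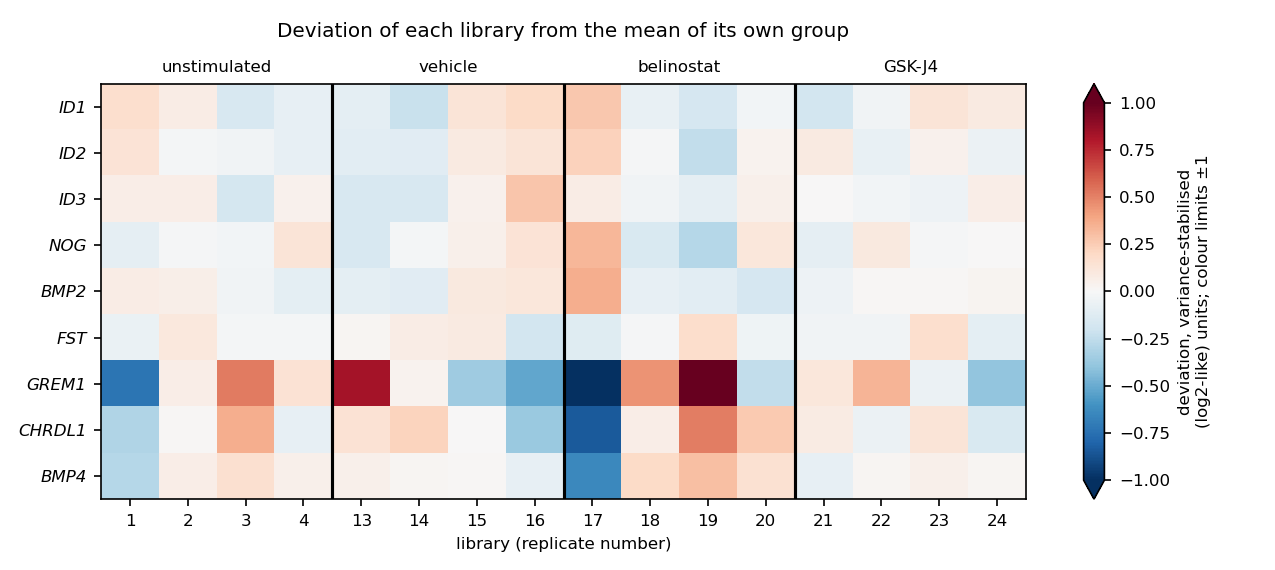
Deviation of each of the 16 libraries (horizontal axis, by replicate number within its group) from its own group's mean for the 9 genes (vertical axis), in variance-stabilised log2-like units, with red above and blue below the mean and colours limited at ±1. Belinostat replicate 17 was low in GREM1, CHRDL1 and BMP4 and high in BMP2, NOG and the ID genes, and belinostat replicate 19 showed the opposite.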

How the data were processed

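Per the labels, libraries were made with the NEBNext Ultra II RNA kit and sequenced on an Illumina NextSeq500, and the submitters' processing notes name FastQC 0.11.9, MultiQC 1.14, kallisto 0.48.0 and the build hg38. The authors deposited kallisto's estimated counts per gene symbol, unscaled, of which 28% had decimals. How transcripts were summed to symbols is not given in the sources used here. No column was left out (0 unused).

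The estimated counts were rounded to whole numbers. DESeq2 1.42.0 (R 4.3.3) was fitted to all 16 libraries in 1 model with a term for group, scaled by median-of-ratios size factors, with no prior filter. Each gene thus had a single estimate of spread shared by all groups, also in contrasts that leave a group out. Wald tests were two-sided, fold changes unshrunken, and p was Benjamini-Hochberg adjusted over all genes tested, with calls under 0.05, in 6 contrasts. Intervals are 95% Wald intervals. Alternatives were edgeR 4.0.16 (quasi-likelihood, TMM), a filter of 10 counts in at least 4 libraries, TMM or total library size as scaling, only the 8 libraries compared, and leaving out each library. The code was tested on simulated data.

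All 9 members are named. Of the 50 pathway genes, those called in at least 1 contrast with a mean of at least 50 normalized counts could be named, and 1 of them is not reported here. The 3 genes with the highest Pearson's r to each member were taken as its neighbours. The members and lists were chosen with earlier results of these data known. Gene lengths are those of the MANE transcripts in GENCODE release 44, which may differ from the annotation used upstream. The table shows no molecular identifiers, and depth was 14.4 to 19.5 M per library.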

Additional observations from a re-analysis of the deposited data

Results flagged for a closer look

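Each of the 9 genes was examined in each of the 4 groups, 36 sets of 4 libraries, for a highest or lowest library with a gap to the nearest that took an unusually large part of the group's range (Dixon's test at the 95% level). Chance flags about 1 in 20 such sets, and 2 were found. BMP2 in belinostat replicate 17 stood at 2512 normalized counts, where the nearest library of the group stood at 1796, a gap of 0.861 of the range. This is the library that also had the lowest BMP4 and GREM1, and BMP2 was not called in belinostat against vehicle without it. ID3 in unstimulated replicate 3 stood at 820.3, where the nearest stood at 981.2, a gap of 0.882 of the range.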

How the results depend on the processing

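Calls of NOG, ID1, ID2 and ID3 under belinostat, against each of the other groups, and of ID3 under GSK-J4 against vehicle kept their direction and their call in every alternative. In vehicle against unstimulated cells, edgeR called 166 genes in all (282 in the main test), 0 of the 9 members and 1 of the pathway list (main 3). At an unadjusted p under 0.05 both DESeq2 and edgeR gave 1 member higher and 1 lower there. The count of members was 2 with the low-count filter, with total library size and with only the groups compared. In GSK-J4 against vehicle, edgeR called 91 genes (main 253) and 2 of the pathway list (main 4), and DESeq2 on those 8 libraries alone called 542 genes and 3 members (main 1). That fit called 876 genes for belinostat against unstimulated cells (main 1461). The causes of these shifts were not tested. Leaving out 1 library gave 180 to 295 genes, 0 to 2 members and 1 to 5 pathway genes in vehicle against unstimulated cells. It gave 132 to 193 genes and 2 to 4 pathway genes in GSK-J4 against vehicle, and 2 to 4 members (main 4) and 9 to 13 pathway genes (main 14) in GSK-J4 against unstimulated cells.

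Log2 fold changes that changed sign were all uncalled. BMP2 in GSK-J4 against vehicle was at -0.012 with total library size and ran from -0.033 to 0.050 without single libraries, and CHRDL1 there ran from -0.061 to 0.24. In vehicle against unstimulated cells the range without single libraries was -0.23 to 0.39 for GREM1, -0.20 to 0.022 for NOG, -0.12 to 0.031 for FST, -0.11 to 0.038 for BMP4 and -0.10 to 0.078 for ID3. It was -0.15 to 0.037 for FST in belinostat against vehicle and -0.74 to 0.083 for GREM1 in belinostat against unstimulated cells. Over alternatives other than leaving out a library, 255 of the member fold changes kept sign and call, 9 lost the call, 5 gained it and 1 changed sign. No paired analysis was possible because the groups share no replicate numbers. TMM and total library size changed the scaling of single libraries by -0.03 to 0.04 on the log2 scale, relative to the mean over libraries. With 4 libraries a group, the 95% interval of GREM1 held 0 in all 6 contrasts and that of CHRDL1 in 3 of 6.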

Other observations

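Genes whose levels were most like those of a member over the 16 libraries were searched among 11740 others, by Pearson's r on the variance-stabilised scale. These are descriptions over libraries that share groups and treatments, with no test. ID3 had ARSD (0.96) and its own relatives ID2 (0.93) and ID1 (0.93) as its nearest. ID1 was nearest to ARSD (0.95), MINPP1 (0.95) and CARD16 (0.95), and ID2 to CARD16 (0.96), NT5DC1 (0.96) and CD1D (0.95). NOG was nearest to PARM1 (0.96), AHR (0.95), the ligand-activated aryl hydrocarbon receptor, and CD1D (0.94). CARD16 was thus shared by ID1 and ID2, ARSD by ID1 and ID3, and CD1D by ID2 and NOG.

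ID1 ran most opposite to EPN2 (-0.94), RABGAP1 (-0.94) and SLC2A9 (-0.93). ID2 ran most opposite to COL6A1 (-0.97), a collagen VI chain, ELOVL2 (-0.97) and CXCL12 (-0.96), and ID3 to FN1 (-0.95), which encodes fibronectin, SLC2A9 (-0.94) and MAP3K20 (-0.94). NOG ran most opposite to FBLIM1 (-0.95), CXCL12, a stromal chemokine (-0.94), and RDH10 (-0.94).

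The ligands and remaining antagonists had other neighbours. GREM1 was nearest to CEMIP (0.92), a hyaluronan-degrading factor, TMEM47 (0.91) and GUCY1B1 (0.90), a subunit of soluble guanylate cyclase. CHRDL1 was nearest to GNG4 (0.94), TMEM255A (0.92) and GDPD5 (0.91), and most opposite to IL18R1 (-0.94), the receptor of IL-18, and PTX3 (-0.93), a secreted pattern-recognition protein. BMP4 was nearest to HS3ST3B1 (0.94), RASGEF1B (0.94) and WNT2 (0.92), and BMP2 to GAREM1 (0.95), ATP1B1 (0.93) and TMEM26 (0.90). FST had the weakest neighbours, with ITPRIP at 0.85 the nearest.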
